A study of Mus musculus with 4 samples.

Results

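The genes described here store, carry, import, export and sense iron. They are the 9 genes Fth1, Ftl1, Trf, Tfrc, Slc11a2, Slc40a1, Cp, Aco1 and Ireb2, taken by symbol from whole transcriptome counts of mouse cortex. They held 22 of the 37539 transcript rows, and after the rows had been summed per symbol they were 9 of 19588 features. The samples were cortices of 12-month-old male mice, 2 per genotype. One genotype was APP/PS1 transgenic (APPswe/PS1ΔE9, called APP here) on a C57BL/6 background, a line that carries mutant human APP and PS1 and deposits amyloid, with both transgenes under the mouse prion protein promoter. The other was wild type (WT), C57BL/6J per the study's methods. The labels give no treatment beyond anaesthesia, and APP stands for 1 transgenic line. They tie no sample to a litter or day, so the spread between samples of a genotype may be partly technical. The edgeR p-values are set against such spread, shared among features.

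In the brain, iron arrives bound to transferrin (Trf), which binds the transferrin receptor (Tfrc) and is taken into endosomes, from which the divalent metal transporter Slc11a2 moves iron into the cytosol. Ferritin, a shell of heavy (Fth1) and light (Ftl1) chains, stores what is not used, and ferroportin (Slc40a1) exports iron with the help of the ferroxidase ceruloplasmin (Cp). When iron is scarce, the regulatory proteins encoded by Aco1 and Ireb2 bind hairpins called iron-responsive elements. A hairpin ahead of the coding sequence then blocks translation, while hairpins behind it protect the mRNA from decay. Oligodendrocytes are rich in iron and are the main source of Trf mRNA in the brain.

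Iron-responsive elements were searched for in the GENCODE M21 sequences (GRCm38) of the members' transcript rows, since they set the members apart by how they are regulated. The motif, read on the transcript strand, was a C, any 5 bases, the loop CAGTGN and 5 more bases that pair with the 5 before the loop. G-T pairs were allowed, and the last base of the loop was not G. This was present in 0.757% of the 36845 transcripts of the table with a sequence, and in 2.32% when 1 bulged base was allowed in the stem. It was found in protein-coding rows of 5 members, at 8 sites, and not in those of Trf, Cp, Aco1 and Ireb2. The sites below are written 5′ to 3′ with flanking bases, and capitals mark the loop. The first 3 lie in exon 1 ahead of the coding sequence and the others behind it.
Fth1-201, chr19:9982732-9982760, plus strand: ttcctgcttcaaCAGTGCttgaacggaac
Ftl1-201, chr7:45459779-45459807, minus strand: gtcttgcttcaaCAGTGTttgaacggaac
Slc40a1-201, chr1:45925465-45925493, minus strand: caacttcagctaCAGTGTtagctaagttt
Tfrc-201, chr16:32631219-32631247, plus strand: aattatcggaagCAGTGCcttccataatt
Tfrc-201, chr16:32631598-32631626, plus strand: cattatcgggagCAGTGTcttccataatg
Tfrc-201, chr16:32631663-32631691, plus strand: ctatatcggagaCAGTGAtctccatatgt
Tfrc-201, chr16:32631710-32631738, plus strand: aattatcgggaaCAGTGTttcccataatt
Slc11a2-205, chr15:100395152-100395181, minus strand: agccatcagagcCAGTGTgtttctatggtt
The ferritin sites were identical at 26 of 29 bases, and the Tfrc sites at between 18 and 25 of 29 bases among themselves. The site of Slc11a2 is the one with a bulged base. It lies in exon 16 of Slc11a2-205, and the other counted transcript of the gene, Slc11a2-201, had no site.

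The 4 libraries held between 28525117 and 43881196 counts, and levels are given as CPM, the read count of a gene scaled to a common library size, after TMM normalization. For each feature the genotypes were compared by the quasi-likelihood test of edgeR, and p-values were adjusted over all 19588 features (Benjamini-Hochberg). By this test 1.24% of all features had an adjusted p under 0.05, 1.09% higher and 0.148% lower in APP. The APP libraries differed more from each other than the WT libraries did, with a chi-square per degree of freedom of 28.6 against 5.05. For 1 value in 2 against 2 samples the smallest possible exact permutation p (two-sided) is 0.333, and edgeR gets below it by sharing the spread among features. Summed markers of microglia, oligodendrocytes and astrocytes were higher in both APP libraries than in both WT libraries, and those of endothelium, erythroid cells and cortical neurons overlapped between the groups.

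Of the 9 genes, 1 passed the test. Trf rose in APP, and 0 genes fell. The levels did not overlap between the groups for 6 of the 9. Trf, Fth1, Tfrc, Ftl1 and Aco1 were above WT in both APP libraries and Ireb2 was below, where 21.4% of all features lay above and 21.1% below in this way. Without adjustment, 4 of the 9 had a p under 0.05, all of them higher in APP (Trf, Fth1, Tfrc and Ftl1), against 7.2% of all features in that direction. In both counts Ftl1 stood for the sum of its rows. In Ftl1-201, its only row in GENCODE M21, the groups overlapped. The median log2 fold change of the 9 genes was 0.088, beside 0.00026 over all features.

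**Figure D1:**
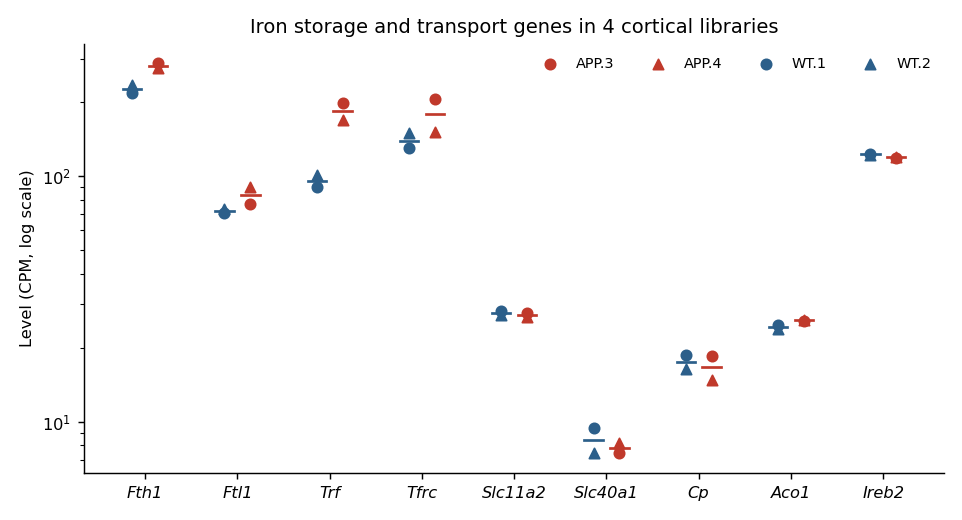
Level of each of the 9 genes in each library, in CPM on a log scale, with APP in red, WT in blue and a bar at each group mean. Trf is the gene whose groups lie farthest apart, with 197 and 169 CPM in APP and 90.3 and 101 CPM in WT.

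Trf, the iron carrier, had 5726 and 5228 counts in the APP libraries, named APP.3 and APP.4 here, against 3968 and 3582 in WT.1 and WT.2. These are 197 and 169 CPM in APP and 90.3 and 101 CPM in WT, so that the lower APP library was still well above the higher WT library. The mean was 183 ± 20.3 CPM in APP and 95.7 ± 7.62 CPM in WT (SD, n = 2), a fold change of 1.91. On the log2 scale this is 0.94 (standard error 0.091, 95% interval 0.73 to 1.14), and edgeR's quasi-likelihood test gave an adjusted p of 0.00189. Trf also passed the fold change cut-off of 1.5 that the study used, which together with the adjusted p was met by 0.919% of all features, 0.878% higher and 0.0408% lower in APP. All counts of Trf lay on a single transcript row, Trf-201, of 2571 nucleotides, which was the only one of the 22 rows past the same test over transcripts (adjusted p = 3.62e-05 from edgeR, where 1.06% of all rows passed). Trf stayed past the test with any 1 library left out, with log2 fold changes between 0.82 and 1.05. The share of all features called was 9.77% without APP.3, 6.95% without APP.4, 1.12% without WT.1 and 0.782% without WT.2. It was 1.28% with library totals in place of TMM, 1.26% with at least 10 counts asked of every library, 1.31% with TMM over protein-coding genes outside the mitochondrial genome and 1.14% with sums per gene identifier, and Trf passed in each.

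The markers of oligodendrocytes had the same direction as Trf. All 17 of the listed markers had higher fitted levels in APP, with a median log2 fold change of 0.45 and a range from 0.13 to 0.82, and 3 of them passed the test, Mag and Cnp among them. Summed, they reached 1956 and 1698 CPM in the APP libraries and 1262 and 1416 CPM in WT.1 and WT.2, which is the same order of libraries as for Trf. The log2 fold change of Trf lay above the range of the markers. Taken as a percentage of the summed markers, Trf was 10.1% in APP.3 and 9.94% in APP.4, against 7.15% in WT.1 and 7.14% in WT.2. The part of the oligodendrocyte markers in the difference of Trf was not tested, and in bulk cortex more cells of a type and more RNA per cell cannot be told apart. Of 11 markers of the choroid plexus, which also expresses Trf, 6 were counted and 0 passed the test, with a summed level of at least 13.3 CPM in APP and at most 11.9 CPM in WT. Only 2 of the 6 had higher fitted levels in APP, Prlr and Clic6, and the median log2 fold change was -0.098. Its defining marker Ttr had 41 and 15 counts in APP and 19 and 64 in WT, and Folr1 was not counted.

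**Figure D2:**
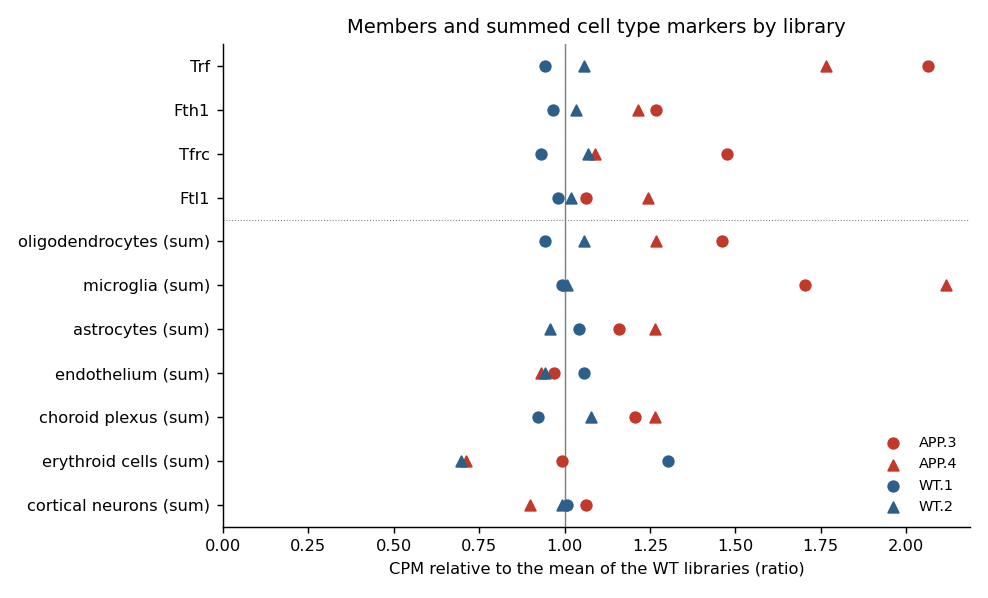
Level of 4 members and summed level of each marker list in each library, as a ratio to the mean of the WT libraries on a linear axis that starts at 0. Trf is above both WT libraries in both APP libraries by more than the oligodendrocyte sum is, and the endothelial, erythroid and neuronal sums overlap between the groups.

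Fth1, the heavy chain with the ferroxidase site, had 8328 and 8530 counts in APP and 9614 and 8300 in the deeper WT libraries. These are 287 and 275 CPM in APP.3 and APP.4 and 219 and 234 CPM in WT.1 and WT.2, without overlap. The means were 281 ± 8.38 and 226 ± 10.9 CPM (SD, n = 2), which is 0.31 on the log2 scale (standard error 0.068, 95% interval 0.16 to 0.47). Its adjusted p was 0.0737 by edgeR's quasi-likelihood test, so that it did not pass. The adjusted p was 0.00710 with DESeq2, 0.0496 with edgeR's exact test and 0.0463 with its likelihood ratio test, which called 1.72%, 2.93% and 3.21% of all features. Over all settings that kept the 4 libraries it ran from 0.00710 to 0.111. Its log2 fold change was 0.29 without APP.3, 0.34 without APP.4, 0.26 without WT.1 and 0.37 without WT.2. Such fits leave 1 library in a genotype and take the spread from the other genotype, so they cannot settle the call. The call for Fth1 therefore depended on the test, while its direction was the same with each test and with each library left out.

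Ftl1, the light chain, had 76.7 and 90.0 CPM in APP and 70.9 and 73.6 CPM in WT, a small gap set by APP.3. Its log2 fold change of 0.21 (standard error 0.084) did not pass edgeR's quasi-likelihood test (adjusted p = 0.373). Without APP.3 the value was 0.32, and without APP.4 it was 0.087, so that its size rested on which APP library was kept. The counts of Ftl1 are uncertain, because 3 rows of the table carry this symbol and only 1 of them, Ftl1-201, is in GENCODE M21. A row on the plus strand, opposite to Ftl1 (chromosome 7, 45457944 to 45459884, minus strand), held between 59.8% and 62.9% of the counts in each library. The table describes this symbol as a group of ferritin light chain genes and predicted genes, and reads shared between near-identical copies cannot be told apart. Ftl1-201 alone had 29.1 and 32.6 CPM in APP and 27.4 and 29.2 CPM in WT, so the groups overlapped, and the log2 fold change was 0.12 (adjusted p = 0.772 from edgeR over transcripts). The Fth1 counts were 3.74 and 3.06 times those of Ftl1 in APP.3 and APP.4 and 3.08 and 3.18 times in WT, so that this ratio overlapped between the genotypes (exact permutation p = 1.0). Over Ftl1-201 alone the ratio was 9.94 and 8.40 in APP and 7.95 and 8.02 in WT, without overlap (exact permutation p = 0.333), so that the choice of Ftl1 rows decides whether the groups overlap. The processed pseudogene Fth-ps2 had 21 to 42 counts per library, and adding it to Fth1 left the log2 fold change at 0.31.

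Microglia also hold ferritin, and their markers differed more between the genotypes than the ferritin chains did. Of 15 microglial markers 12 passed the test, all higher in APP, with a median log2 fold change of 0.96 and a summed level of 561 and 696 CPM in APP against 327 and 331 CPM in WT. Ftl1 was higher in APP.4, the library with the higher microglial sum, and Fth1 in APP.3, the library with the higher oligodendrocyte sum. The astrocyte sum was also higher in APP.4, with 5434 CPM against 4992 CPM in APP.3. With 2 APP libraries each gene must be higher in 1 of them, so this order cannot point to a cell type. As a percentage of the summed oligodendrocyte markers, Fth1 was 14.7% and 16.2% in APP and 17.3% and 16.5% in WT. Against the microglial sum it was 51.2% and 39.5% in APP and 66.9% and 70.7% in WT. The part of either cell type in the ferritin values was not tested.

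Tfrc, the receptor for Trf, was high in a single library. It had 206 CPM in APP.3, while APP.4 with 152 CPM was close to WT.2 with 149 CPM, and WT.1 had 130 CPM. The means were 179 ± 38.1 and 139 ± 13.4 CPM (SD, n = 2). This is 0.36 on the log2 scale (standard error 0.13), and edgeR gave an adjusted p of 0.301 in its quasi-likelihood test. Without APP.3 the log2 fold change was 0.13 (adjusted p = 0.230), and without APP.4 it was 0.56 (adjusted p = 5.40e-13). In these fits the lone APP library is assumed to vary like the WT libraries, and they are the ones with the raised shares of calls given above. The main transcript Tfrc-201 carried 97.0% of the counts of the gene. Rows with a retained intron held 1.04% of the Tfrc counts in APP.3 (Wilson 95% interval 0.812% to 1.33%), and 2.36%, 2.64% and 2.48% in APP.4, WT.1 and WT.2. Over the whole table such rows held 2.29% to 2.34% of a library, so that APP.3 was low for Tfrc and not over the whole table. Endothelial cells take up Trf from blood through Tfrc, and 0 of the 12 endothelial markers passed the test. Their summed level was 95.1 and 91.5 CPM in APP and 104 and 92.6 CPM in WT. As a percentage of that sum, Tfrc was 216% and 166% in APP and 125% and 161% in WT. The neuronal markers summed to 5119 and 4327 CPM in APP and to 4854 and 4773 CPM in WT. Like Tfrc, the neuronal sum was highest in APP.3, but it was lowest in APP.4, where Tfrc was above both WT libraries. The part of either cell type in the Tfrc values was not tested.

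The ratio of Trf counts to Tfrc counts was 0.960 and 1.11 in APP.3 and APP.4 and 0.694 and 0.678 in WT.1 and WT.2. The groups did not overlap (exact permutation p = 0.333, the smallest that 2 against 2 allows).

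**Figure D3:**
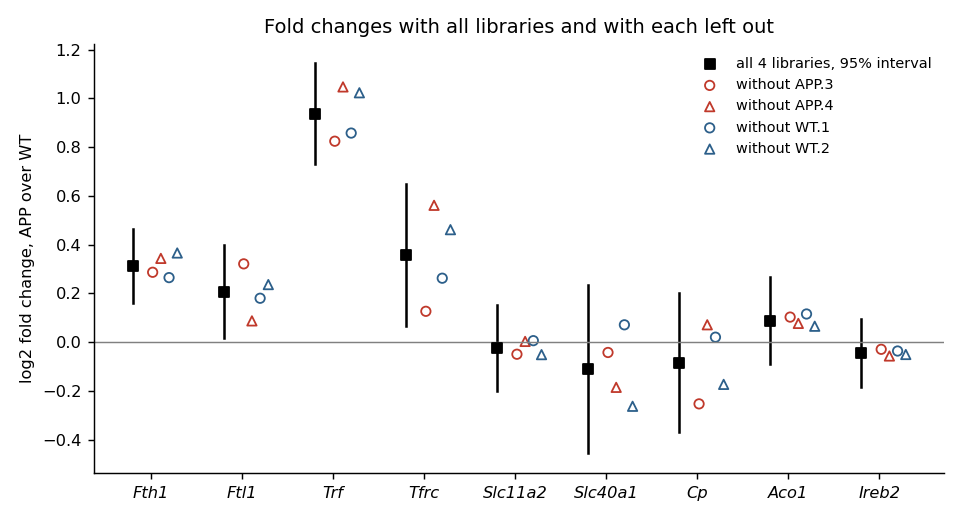
Log2 fold change of each of the 9 genes, APP over WT, with all libraries (black squares, bars are 95% intervals from edgeR) and with each library left out (open symbols). The values of Trf stay between 0.82 and 1.05, those of Tfrc run from 0.13 to 0.56, and those of Slc11a2, Slc40a1 and Cp lie on both sides of 0.

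Slc11a2, the endosomal iron transporter, had 27.7 and 26.7 CPM in APP and 28.2 and 27.1 CPM in WT, with overlapping groups. Its log2 fold change was -0.025 (95% interval -0.20 to 0.15, adjusted p = 0.946 from edgeR). The gene was counted on a pair of protein-coding rows that differ in the element printed above. The row with it, Slc11a2-205, held 44.2% and 45.5% of the gene's counts in APP and 47.2% and 46.6% in WT. Its share was lower in both APP libraries, by less than the width of the Wilson 95% intervals, the lowest of which began at 40.8% in APP and at 43.4% in WT. Separately, the log2 fold change was -0.087 for Slc11a2-205 and 0.033 for Slc11a2-201 (adjusted p = 0.901 and 0.966 from edgeR over transcripts). Intervals of this kind cover counting error within a library only and leave out the spread between mice. The reads carry no molecular identifiers, so the intervals may be too narrow even for counting error.

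Neither gene of iron export passed the test. Slc40a1, the only known cellular iron exporter, had the fewest counts of the 9 genes, with 215 and 253 in APP and 412 and 263 in WT. Its levels of 7.41 and 8.17 CPM in APP overlapped those in WT, with 9.37 and 7.42 CPM (log2 fold change -0.11, 95% interval -0.46 to 0.23, adjusted p = 0.855 from edgeR). A further pair of rows that GENCODE M21 gives to Slc40a1, both with a retained intron and with no symbol in the table, had 32 to 47 counts per library and were not added.

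Cp, which oxidises iron as it leaves the cell and in brain is mainly made by astrocytes, had 18.5 and 14.7 CPM in APP and 18.7 and 16.4 CPM in WT. This gave a log2 fold change of -0.084 (95% interval -0.37 to 0.20, adjusted p = 0.871 from edgeR). Of its 6 rows, Cp-201 held 86.6% of the counts. Retained-intron rows held 5.60% of the Cp counts in APP.3 (Wilson 95% interval 3.95% to 7.88%) and between 9.48% and 10.1% in the other libraries, so that APP.3 was the low library here as for Tfrc. Gfap and Aqp4, of the 12 astrocyte markers, passed the test and were higher in APP. Over the 12 markers the median log2 fold change was 0.19, with a range from -0.077 to 2.82. The part of astrocytes in the Cp values was not tested.

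**Figure D4:**
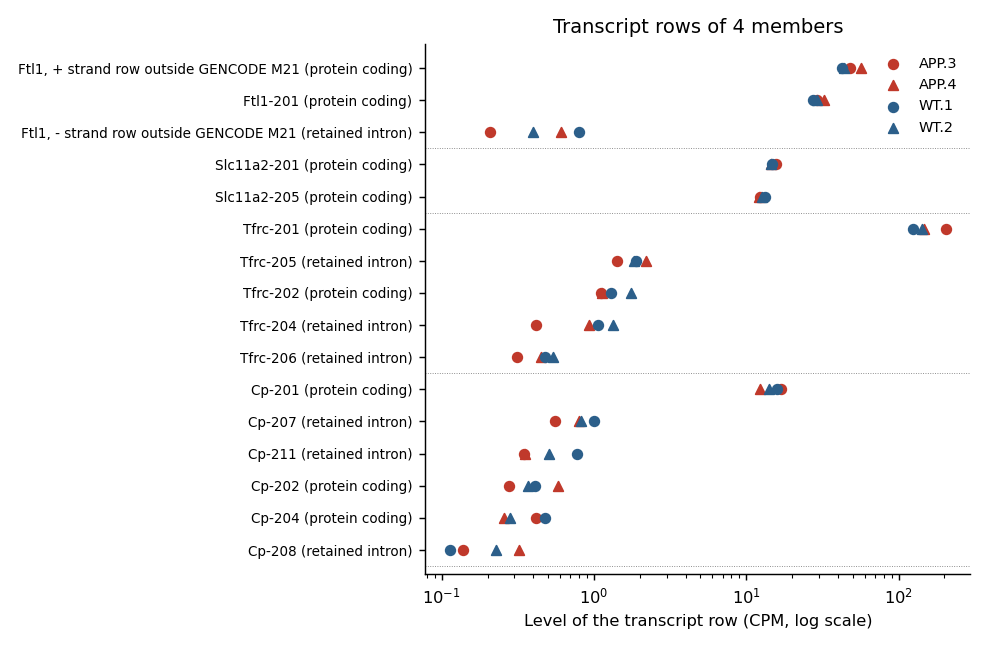
Level of each transcript row of Ftl1, Slc11a2, Tfrc and Cp in each library, in CPM on a log scale, with APP in red and WT in blue. In each gene 1 or 2 protein-coding rows carry most of the counts, and the retained-intron rows Tfrc-204, Tfrc-205 and Tfrc-206 are lowest in APP.3.

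The iron sensors differed little between the genotypes. Aco1, which is cytosolic aconitase when it holds an iron-sulphur cluster and an RNA-binding protein when it does not, had 25.6 and 26.0 CPM in APP and 24.7 and 23.8 CPM in WT. Its log2 fold change was 0.088 (95% interval -0.089 to 0.27, adjusted p = 0.735 from edgeR). Ireb2, which binds the same elements and is degraded when iron is plentiful, had 118 and 120 CPM in APP and 123 and 122 CPM in WT. Its log2 fold change was -0.045 (95% interval -0.18 to 0.095, adjusted p = 0.855 from edgeR). The groups did not overlap in either gene, in opposite directions, and neither difference passed the test. The Ireb2 counts were 4.61 and 4.61 times those of Aco1 in APP and 4.99 and 5.12 times in WT (exact permutation p = 0.333). With the genes apart in opposite directions this ratio could not overlap, so it is no further test. At the protein level both genes are controlled by iron, which these data do not measure.

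Read by their elements, the genes had no shared direction. Those with an element ahead of the coding sequence had log2 fold changes of 0.31 (Fth1), 0.12 (the transcript Ftl1-201, against 0.21 for the sum of the Ftl1 rows) and -0.11 (Slc40a1). Of those with elements behind it, Tfrc had 0.36 and the transcript Slc11a2-205 had -0.087. Trf, which had none, was the only one of the 9 genes past the test.

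Levels of different genes were compared as CPM per kilobase of the transcript rows with a length in GENCODE M21. In WT, Fth1 was the highest with 243 ± 12.4 (SD, n = 2), followed by Trf with 37.2 ± 3.06, Tfrc with 32.5 ± 2.93 and Ftl1 with 29.3, the last from Ftl1-201 alone. Ireb2 had 21.3, Slc11a2 7.78, Aco1 6.63, Cp 4.77 and Slc40a1 2.49 CPM per kilobase. The place of Ftl1 is uncertain, because the row with most of its counts has no length here and was left out. The levels of neighbours in this order did not overlap in the WT libraries, but the gaps from Trf to Tfrc and from Tfrc to Ftl1 were under 2 SDs of the higher gene. In APP the order was the same, and Trf with 71.3 ± 8.58 stood farther above Tfrc with 40.2 ± 7.20 CPM per kilobase.

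The other genes of iron handling gave 0 calls. Of 83 genes in 6 lists, 77 were counted, and 0 passed edgeR's quasi-likelihood test, with 6 at an unadjusted p under 0.05, where 11.9% of all features were. DESeq2 and edgeR's exact test also called 0, and its likelihood ratio test called 2. Over all features these tests called 1.24%, 1.72%, 2.93% and 3.21% in turn. Left without APP.3 the quasi-likelihood test called 6 of them (Slc11a1, Ltf, Pcbp2, Bola2, Alad and Epas1), without APP.4 it called 3 (Iscu, Hmox1 and Pgrmc1), and without either WT library 0. All features were called at 9.77% without APP.3 and 6.95% without APP.4, above the shares of the 77 genes. The median log2 fold change of the 77 was -0.0037, and the medians of the 6 lists ran from -0.040 to 0.11. The groups did not overlap in 13 genes above and 16 below WT, which is 16.9% and 20.8% of the 77.

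Among genes of import and export, the most abundant were Slc22a17, a receptor for lipocalin-bound iron, with 107 CPM in APP and 112 CPM in WT, and the metal transporter Slc39a14, with 33.2 and 33.1 CPM. Among those of systemic iron signalling, the receptors Bmpr2 and Neo1 had 417 and 116 CPM in APP and 418 and 107 CPM in WT. Of the iron chaperones and ferritin turnover genes, Herc2 had 546 and 572 CPM and Fbxl5, the iron-sensing subunit of the ligase that removes the Ireb2 protein, had 184 and 192 CPM in APP and WT. Ncoa4, the receptor that takes ferritin to lysosomes, had 107 CPM in APP and 105 CPM in WT. None of these passed edgeR's quasi-likelihood test.

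In mitochondria, the chaperone Hspa9 had 207 and 203 CPM in APP and WT. Of the haem genes, Pgrmc1 had 236 and 217 CPM and the endosomal haem transporter Slc48a1 had 39.9 and 40.9 CPM. Hmox1, the inducible haem oxygenase, had 130 and 98 counts in APP and 102 and 104 in the deeper WT libraries. These are 4.48 and 3.16 CPM in APP.3 and APP.4 and 2.32 and 2.93 CPM in WT.1 and WT.2. Its log2 fold change was 0.54 (adjusted p = 0.375 from edgeR). Of other mRNAs known to hold an iron-responsive element, Cdc42bpa had 444 and 450 CPM. None of these passed edgeR's quasi-likelihood test either.

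The 2 genes that the likelihood ratio test called were rare and moved in opposite directions. Slc11a1, a relative of Slc11a2 in the phagosomes of macrophages and microglia, had 65 and 78 counts in APP and 45 and 53 in WT, a difference of 0.93 in log2 (edgeR's quasi-likelihood test gave an adjusted p of 0.174). Hjv, a co-receptor that sets hepcidin expression, had 7 counts in each APP library and 45 and 19 in WT, a difference of -1.74 in log2 (adjusted p = 0.199 by the same edgeR test). Hmox1, Ncoa4, Slc11a1 and Hjv, and the genes called with a library left out, were chosen for the text after their values were seen.

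**Figure D5:**
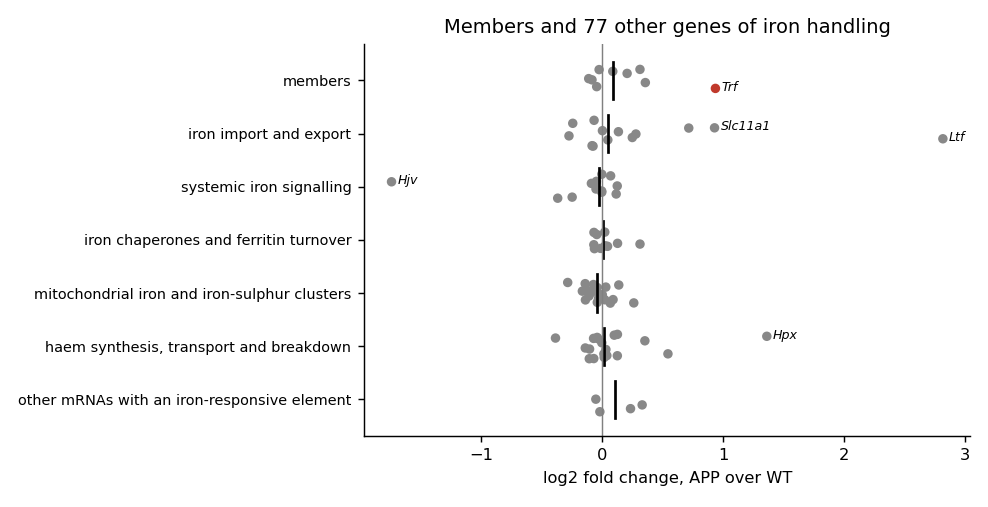
Log2 fold change, APP over WT, of the 9 members and of the 77 other counted genes in 6 lists, with a bar at each median and red for an adjusted p under 0.05. Trf is the only red point, and the medians of the 6 other lists lie between -0.040 and 0.11. The points of Ltf and Hpx rest on at most 12 counts in a library.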

How the data were processed

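Strand-specific libraries of rRNA-depleted cortical RNA were sequenced as read pairs. The authors removed rRNA pairs, aligned the remainder to Ensembl mouse RNA by FANSe2 with mismatches allowed, and deposited read counts per transcript without normalization. The Ensembl release is not given in the sources used here. The submitters' processing notes name CASAVA 1.8, edgeR and hg19, a human build, from which no coordinate was taken. The authors' own comparison (fold changes, mean CPM, p-values and FDR from edgeR) and 4 columns of log2 CPM per library were not used. The numbers of the WT columns are those of the labels, while APP columns could be assigned to their group only. Totals ran from 28525117 to 43881196 counts per library.

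Counts were summed per symbol of the table, ignoring case. The 8274 rows with no symbol were summed by GENCODE M21 gene (98.2% of all rows are in it). Features with fewer than 10 counts would have been left out, and 0 were. Tests used R 4.3.3, edgeR 4.0.16 (quasi-likelihood, TMM, no covariate) and DESeq2 1.42.0, and ratios scipy 1.17.1. The common dispersion was 0.00755. The tests were also run on simulated counts with the same dispersion for all features and both genotypes. That check does not cover the unequal spread of the APP and WT libraries given above. The members and lists were chosen with earlier results of these data known. Genes named are the 9 members, their main transcripts, and of each iron list the genes past the test or the 2 with the highest CPM, and some of these are not reported here. The alternatives were library totals, DESeq2, the exact and the likelihood ratio test of edgeR, other filters and scalings, sums per gene identifier, transcripts, ferritin relatives and each library left out.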

Additional observations from a re-analysis of the deposited data

How the results depend on the processing

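Trf passed the test in the 10 other settings that kept all libraries and with any 1 library left out. Of those 10 settings, the one without a count filter repeated the reported fit, because the filter had left out no feature. Adding Fth-ps2 to Fth1 did not alter the counts of Trf. The number of members past the test, 1 in the reported fit, was 2 with DESeq2, edgeR's exact test and its likelihood ratio test, where Fth1 joined Trf at an unchanged log2 fold change of 0.31. The number of other iron genes past the test rose from 0 to 2 with the likelihood ratio test. These tests also called more features, 336, 573 and 628 against 242, and the cause was not tested. Slc11a2 changed sign when its largest transcript (log2 fold change 0.033) replaced the gene sum. With each library left out, the number of members past the test ran from 1 to 3 and that of the other iron genes from 0 to 6. In these fits the lone library of a genotype is assumed to vary like the other genotype, so the calls measure no spread within it. In log2 fold change, the range was from 0.26 to 0.37 for Fth1, from 0.087 to 0.32 for Ftl1, from 0.82 to 1.05 for Trf, from 0.13 to 0.56 for Tfrc, from -0.051 to 0.0061 for Slc11a2, from -0.26 to 0.071 for Slc40a1, from -0.25 to 0.071 for Cp, from 0.065 to 0.12 for Aco1 and from -0.057 to -0.029 for Ireb2. No paired analysis was run, because the labels pair no APP mouse with a WT mouse. The APP columns also carry numbers that are in no label. Precision is limited by the 4 libraries and, for Slc40a1, by as few as 215 counts in a library.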
